A study of Mus musculus with 2 samples.

Results

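Smooth muscle cells and pericytes are the mural cells that surround blood vessels, and 10 genes that mark them were examined in the whole omentum after diphtheria toxin (DT)-mediated ablation of Postn-expressing cells. The genes were chosen by their symbols among the 24346 gene symbols of the series. They were Acta2, Tagln, Myh11, Cnn1, Des, Myl9 and Lmod1 of the contractile apparatus, and Rgs5, Cspg4 and Pdgfrb, which are used to mark pericytes. A single library was made per genotype, WT or Postn-DTR, in both cases at 5 days after DT. Postn-DTR mice are heterozygous and carry the DT receptor in the first coding exon of a Postn copy, so that cells using the Postn promoter are killed by DT, and they were made in C57BL/6 zygotes. The WT mice have no receptor and received the same toxin. Per the study, the main target in the omentum is the Aldh1a2+ group among the fibroblastic reticular cells (FRCs), and Postn is also used by myofibroblasts elsewhere. The study also reported a partial loss of another FRC population after DT, and left systemic effects of the ablation possible. The age of the mice, and whether a library held a single omentum or a pool, were not given in the sources used here.

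Smooth muscle cells line arteries and veins in layers and contract through actin and myosin filaments, whose genes are switched on by serum response factor (SRF) together with its cofactor myocardin. Pericytes sit on capillaries and postcapillary venules, are recruited by PDGF-B from endothelial cells through its receptor PDGFRB, and depend on NOTCH3 signalling in several tissues. Both cell types share genes with myofibroblasts and with FRCs of lymphoid organs, which also use desmin and smooth muscle actin. Several of the 10 genes are therefore not exclusive to vessels in a tissue with milky spots.

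Expression was given as FPKM, the number of sequenced fragments scaled to the length of the transcript and to the size of the library. There was 1 library per genotype, so no difference has a replicate check, no test between genotypes was possible and no p-value is given. The change of a gene was calculated as log2(FPKM + 1) in Postn-DTR minus that in WT, and 2-fold on this scale was the limit for naming a gene lower or higher. A fold given for a single gene divides its deposited values without a pseudocount. Counting intervals (95%, exact) were obtained from read numbers estimated from the shortest annotated coding transcript. They cover counting error in these libraries only, not the difference between mice, and PCR copies are not independent molecules. The estimated depth was 23220000 fragments for WT and 24040000 for Postn-DTR.

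The expression minimum, a mean of 1 FPKM over the libraries, was passed by 13127 genes. Of these, 410 (3.12%) were at least 2-fold lower and 509 (3.88%) at least 2-fold higher in Postn-DTR, and the median change was 0.02. A change below 0, of any size, was found in 6316 of them (48.1%). The WT library held 13182 FPKM of pancreatic acinar transcripts over 31 genes (2.43% of its total), against 21.8 FPKM in Postn-DTR. Whether RNA from pancreas, which has mural cells of its own, contributed to the values below was not tested. The 8 adipocyte genes, which mark the fat of the omentum, summed to 7969 FPKM in WT against 8763 in Postn-DTR. They did not share a direction, with Adipoq at 955.2 and 635.9 but Fabp4 at 4879 and 6519, and their median change was -0.57. In whole tissue, fewer cells of a type and less RNA per cell cannot be told apart.

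All 10 mural genes had an FPKM above 1 in both libraries. Among them, 2 were at least 2-fold lower in Postn-DTR, namely Rgs5 and Pdgfrb, beside 3.12% of all genes compared. None was at least 2-fold higher, beside 3.88% of all genes compared. On the ratio of the deposited FPKM, a reading added after the values were seen, Cspg4 was also lower by over 2-fold and Cnn1 higher. The median change of the 10 genes was -0.63, with 7 below 0 and 3 above it, beside 48.1% of all genes compared below 0. The change lay between -3.15 and -0.90 in the 3 pericyte genes, and between -0.78 and 0.99 in the 7 contractile genes. These ranges did not overlap as deposited, but with a pseudocount of 5 they did, with Cspg4 at -0.55 and Myh11 at -0.68. The summed FPKM went from 79.5 in WT to 23.4 in Postn-DTR for the pericyte genes, and from 440.5 to 403.0 for the contractile genes.

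**Figure D1:**
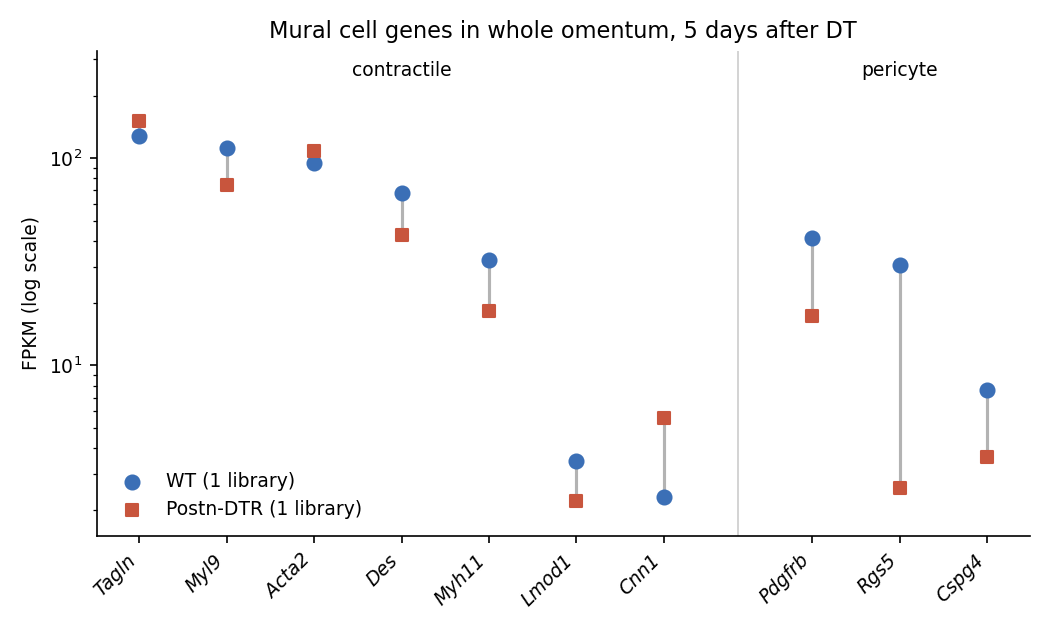
FPKM of the 10 mural genes on a log axis in the WT library (circles) and the Postn-DTR library (squares), 1 library each with no error bars, joined by a line per gene. The widest gap is that of Rgs5, at 30.6 and 2.56, whereas Tagln (128 and 151) and Acta2 (94.6 and 109) lie close together.

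Rgs5 encodes a regulator of G protein signalling that is abundant in pericytes and venous smooth muscle. It lies on chromosome 1, 169655501 to 169695813 on the plus strand (ENSMUSG00000026678, GRCm38). Its FPKM was 30.6 in WT against 2.56 in Postn-DTR, or 11.98-fold lower, with a counting interval of 8.26-fold to 17.6-fold. Its change of -3.15 was among the lowest of all genes compared. Only 48 of the 13127 genes had a more negative change, and 26 of these were acinar genes. With annotated transcripts of 723 and 4096 bases, its reads were estimated at 367 to 2766 in WT and 31.7 to 239 in Postn-DTR.

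Pdgfrb encodes the receptor through which PDGF-B attracts and maintains pericytes, and it is also found on fibroblasts. It lies on chromosome 18, 61045150 to 61085061 on the plus strand. Its FPKM was 41.3 in WT against 17.3 in Postn-DTR, or 2.39-fold lower with a counting interval of 2.27-fold to 2.51-fold. The related receptor gene Pdgfra, which marks fibroblasts and FRCs, was at 26.0 and 29.2, a change of 0.17 that became -0.17 at equal totals, that is, once acinar genes were taken out and the remaining FPKM of each library summed to the same value. Pdgfrb was thus above Pdgfra in WT, at 1.59 times its FPKM, and below it in Postn-DTR, at 0.592 times.

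Cspg4 encodes the proteoglycan NG2, a surface marker of pericytes and smooth muscle precursors. It lies on chromosome 9, 56865033 to 56899870 on the plus strand. Its FPKM was 7.60 in WT against 3.60 in Postn-DTR, or 2.11-fold lower with a counting interval of 1.93-fold to 2.32-fold. On the scale with a pseudocount, its change of -0.90 did not reach 2-fold.

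These values were set beside the endothelium, on which mural cells rest. The 12 blood endothelial genes summed to 494.3 FPKM in WT against 490.2 in Postn-DTR. As deposited, their median change was 0.01 and none was changed at least 2-fold. The median turned to -0.06 after scaling to the 75th percentile and to -0.33 at equal totals. Kdr, the VEGF receptor gene, was the lowest of them at 22.4 and 13.6, a change of -0.68 that passed 2-fold at equal totals, at -1.003. Pecam1, which encodes the adhesion molecule CD31, was at 109.0 and 109.5. Relative to Pecam1, Rgs5 equalled 28.1% in WT against 2.33% in Postn-DTR, Pdgfrb at 37.9% and 15.8%, and Cspg4 at 6.97% and 3.28%. Acta2 went from 86.8% to 99.4% of Pecam1. Scaling both libraries to the same endothelial sum multiplied the Postn-DTR values by only 1.008. The number of lower mural genes stayed at 2, which so small a factor could hardly alter. The endothelial list is not exclusive to endothelium here, as the study found TIE2 (Tek) and CD105 (Eng) on Aldh1a2+ FRCs as well.

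**Figure D2:**
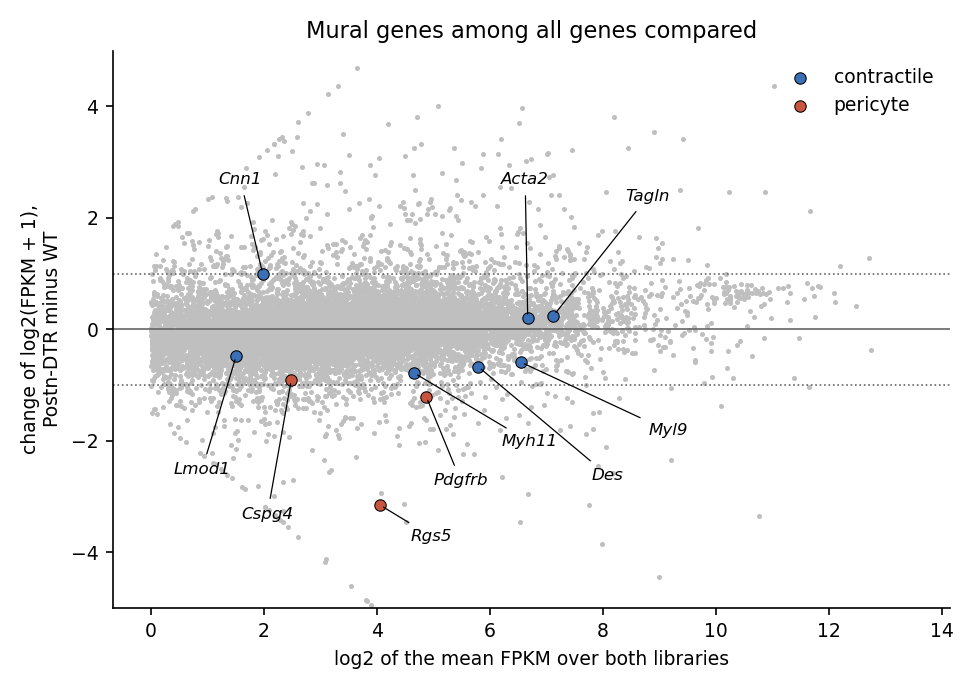
Difference between Postn-DTR and WT in log2(FPKM + 1) against the log2 of the mean FPKM for all 13127 genes compared, each a grey point, with the contractile genes in blue and the pericyte genes in red. Dotted lines mark 2-fold, and 38 genes beyond the vertical axis are not drawn. Rgs5 and Pdgfrb lie below the lower line, whereas Cnn1, at 0.99, lies just under the upper one.

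The 7 contractile genes did not share a direction. Acta2 encodes smooth muscle alpha-actin and Tagln encodes transgelin (SM22), an actin-binding protein that appears early in the smooth muscle programme. Acta2 (chromosome 19, 34241090 to 34255590 on the minus strand) was measured at 94.6 FPKM in WT against 108.9 in Postn-DTR. Tagln (chromosome 9, 45929619 to 45936058 on the minus strand) was at 127.7 against 151.4. Their changes of 0.20 and 0.24 turned to -0.14 and -0.10 at equal totals, so neither gene had a direction that held across scalings.

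Myh11, Des, Myl9 and Lmod1 had changes below 0 but short of 2-fold. Myh11 (chromosome 16, 14194535 to 14291372 on the minus strand) encodes the smooth muscle myosin heavy chain. Its FPKM was 32.2 in WT against 18.3 in Postn-DTR, or 1.76-fold lower with a counting interval of 1.68-fold to 1.85-fold. Des (chromosome 1, 75360329 to 75368579 on the plus strand) encodes the intermediate filament desmin, which also marks the FRC network of milky spots. It was at 68.1 and 42.5, or 1.604-fold lower. Staining in the study still showed a Desmin+ network in Postn-DTR omentum 5 days after DT. That is protein seen in place, whereas the values here are RNA of the whole omentum. Myl9 (chromosome 2, 156775420 to 156781658 on the plus strand), the regulatory light chain of smooth muscle myosin, was at 112.1 and 74.3, or 1.51-fold lower. Lmod1 (chromosome 1, 135324807 to 135368065 on the plus strand), the smooth muscle leiomodin that nucleates actin filaments, was at 3.48 and 2.22, or 1.57-fold lower. These 4 genes were below 0 under all settings tried, but none reached 2-fold as deposited. Of the 13127 genes, 1160 (8.84%) were at least 1.5-fold lower on the scale with a pseudocount. Of the 10 mural genes 6 were, and Lmod1, at -0.48, was not. At least 1.5-fold higher were 9.86% of all genes and 1 of the 10, Cnn1.

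Cnn1 was the exception. It encodes calponin 1, which binds actin and tunes the ATPase of smooth muscle myosin, and it lies on chromosome 9, 22099216 to 22109630 on the plus strand. Its FPKM was 2.31 in WT against 5.58 in Postn-DTR, or 2.42-fold higher with a counting interval of 1.75-fold to 3.35-fold. At 54.5 to 116.5 estimated reads in WT, it had the lowest FPKM of the 10 genes there. The FPKM of Cnn1 was 7.17% of that of Myh11 in WT and 30.5% in Postn-DTR, although both are regarded as late markers of smooth muscle. Another low contractile gene was higher still. Actg2, the gamma-actin of visceral smooth muscle, was at 2.97 and 12.9, which was 4.36-fold higher. Actin genes are similar in sequence, and the values of Acta2 and Actg2 are uncertain to the extent that reads were shared between them. Acta2 had 31.9 times the FPKM of Actg2 in WT and 8.42 times in Postn-DTR.

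The order of the 10 levels changed accordingly. In WT it ran from Tagln through Myl9, Acta2, Des, Pdgfrb, Myh11, Rgs5, Cspg4 and Lmod1 to Cnn1. In Postn-DTR Acta2 stood above Myl9, Myh11 above Pdgfrb, and Rgs5 had dropped below Cnn1 and Cspg4 to the place next to Lmod1. Rgs5 had a higher FPKM than 88.2% of all symbols in WT and than 54.1% in Postn-DTR, whereas Acta2 stayed above 96.5% and 96.6% of them.

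Promoter sequences were searched for the CArG box, the element bound by SRF, because SRF is the shared regulator of contractile genes. RefSeq promoters (GRCm38.p6, 250 bases before to 50 after the start) were found for 7 of the 10 genes. They were Des, Lmod1, Rgs5, Myl9, Cnn1, Cspg4 and Acta2. The box is palindromic, so a search of one strand covers both. An exact box was present in 1 of these 7 genes and in 1.81% of all 27025 genes with a promoter. With at most 1 G or C in the AT core, as is common in smooth muscle genes, it was present in 2 of the 7 and in 11.3% of all genes. The elements are shown in 30-base stretches from 5′ to 3′ on the gene's own strand, with the CArG box in capitals, since they belong to a pair of contractile genes that differed in direction as deposited:
Acta2, chr19:34255438-34255467, minus strand, position -84 from the RefSeq start: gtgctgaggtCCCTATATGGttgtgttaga
Acta2, chr19:34255388-34255417, minus strand, position -34 from the RefSeq start: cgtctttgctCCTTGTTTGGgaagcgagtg
Myl9, chr2:156775293-156775322, plus strand, position -161 from the RefSeq start: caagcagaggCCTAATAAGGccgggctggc
Myl9, chr2:156775355-156775384, plus strand, position -99 from the RefSeq start: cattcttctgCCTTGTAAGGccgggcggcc

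Both Acta2 elements have 1 base outside the AT alphabet in the core, and the first Myl9 element is the exact box. GENCODE places the start of Acta2 further upstream, so that both Acta2 elements fall within its first exon there, and the Myl9 elements lie upstream of the gene in both annotations. No such box was found in the window of Rgs5, Cspg4, Des, Lmod1 or Cnn1, which says only that these letters are not in that stretch. Among 11 other pericyte genes with a promoter, the number with at most 1 substitution was 0, and among 27 other contractile genes it was 7 (25.9%). The 250 bases before the start of Rgs5 are shown because it had the lowest change of the 10 genes, with nothing in capitals since no box was found:
Rgs5, chr1:169655251-169655500, plus strand: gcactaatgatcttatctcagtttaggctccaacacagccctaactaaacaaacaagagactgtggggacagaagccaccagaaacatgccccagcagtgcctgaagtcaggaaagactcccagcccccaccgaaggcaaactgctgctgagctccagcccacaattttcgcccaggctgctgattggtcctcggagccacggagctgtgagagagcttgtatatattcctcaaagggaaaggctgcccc

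Several contractile genes have a broadly expressed relative that does the same work in non-muscle cells, and each was compared with its own. Myh9, the main non-muscle myosin heavy chain, was at 132.1 and 91.96, a change of -0.52 beside -0.78 for Myh11, and Myh11 equalled 24.4% of Myh9 in WT and 19.9% in Postn-DTR. Vim, the vimentin of mesenchymal cells and leukocytes, was at 883.5 and 835.5, and desmin went from 7.71% to 5.08% of it. Myl12b, a non-muscle regulatory light chain, was at 284.0 and 284.9, and Myl9 went from 39.5% to 26.1% of it. Myl12b had no stable direction, with a change of 0.00 that became -0.34 at equal totals. Tagln2, the transgelin of lymphocytes and other cells, was at 314.8 and 367.4, and Tagln equalled 40.6% of Tagln2 in WT against 41.2% in Postn-DTR. Cnn3, the acidic calponin, was at 124.6 and 112.6, a change of -0.14 beside 0.99 for Cnn1. Actb was at 1469 and 1268, and Acta2 went from 6.44% to 8.59% of it. Ratios within a library do not depend on scaling.

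**Figure D3:**
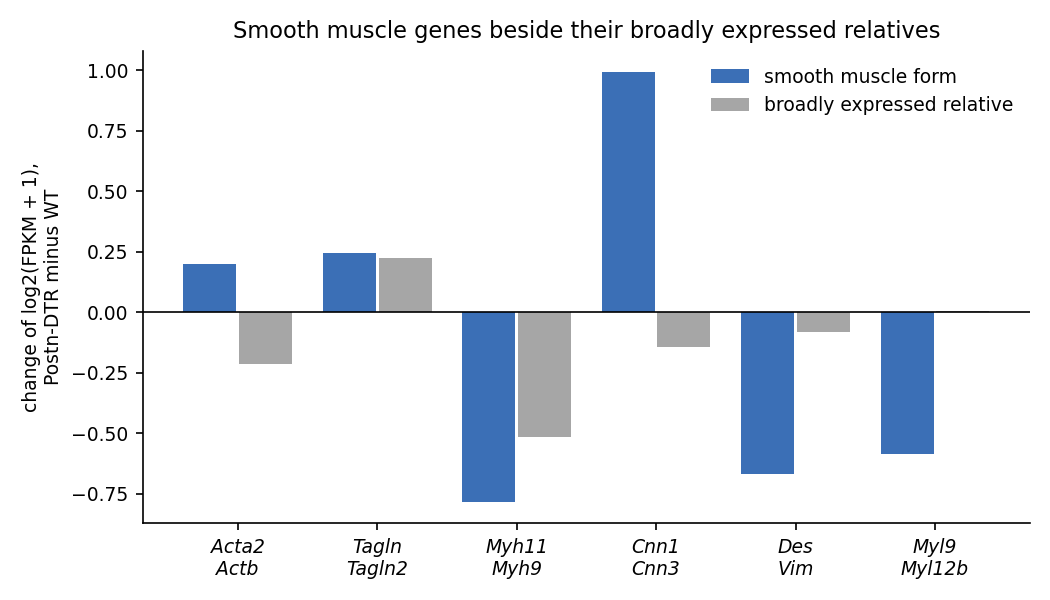
Difference in log2(FPKM + 1) from WT to Postn-DTR for 6 smooth muscle genes (blue bars) and a broadly expressed relative of each (grey bars), from 1 library per genotype. Bars of Tagln and Tagln2 are alike (0.24 and 0.22), and those of Cnn1 and Cnn3 differ most (0.99 and -0.14). The bars of Acta2, Tagln and Tagln2 turn below 0 at equal totals, as does that of Myl12b, which is near 0 here.

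To see whether the low values of Rgs5, Pdgfrb and Cspg4 were shared, 19 other genes known from pericytes were compared, of which 18 passed the expression minimum. At least 2-fold lower were 4 of them and none was higher, beside 3.12% and 3.88% of all genes compared. Their median change was -0.67, and 16 were below 0, beside 48.1% of all genes compared. Vtn, which encodes vitronectin and is also made by the liver, was at 9.48 and 0.565, or 16.8-fold lower. Its Postn-DTR value rests on about 20.9 estimated reads, with a counting interval of 10.7-fold to 27.3-fold. Notch3, the Notch receptor of mural cells, was at 21.3 in WT against 3.53 in Postn-DTR, or 6.03-fold lower with a counting interval of 5.55-fold to 6.56-fold. It lies on chromosome 17, 32120820 to 32166852 on the minus strand. Agtr1a, the angiotensin II receptor, was at 14.7 and 2.07, or 7.07-fold lower, and Higd1b, a mitochondrial protein gene enriched in pericytes, was at 12.4 and 3.35, or 3.71-fold lower. Higd1b had about 23.4 estimated reads in Postn-DTR and a counting interval of 2.36-fold to 6.29-fold. Not all pericyte genes were low. Kcnj8 and Abcc9 encode the pore and the regulatory subunit of a single potassium channel, and the former was at 17.3 and 15.4 whereas the latter was at 10.9 and 4.97. Rgs4, the neighbour of Rgs5 on chromosome 1, was at 9.65 and 4.48, a 2.15-fold difference beside 11.98-fold for Rgs5. Steap4 was at 124.6 and 141.4, a direction that turned at equal totals, and Anpep, which fibroblasts and myeloid cells also express, was at 23.9 and 33.002.

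Another 31 genes of the contractile apparatus were compared, and 25 passed the minimum. Of these, 3 were at least 2-fold lower and 1, Actg2, was higher, beside 3.12% and 3.88% of all genes compared. Their median change was -0.28. The lower genes included Aoc3 (117.4 and 38.2), which adipocytes also express, and Ednra (9.52 and 3.44), which encodes the endothelin receptor of smooth muscle. The myosin kinase Mylk was at 17.4 and 8.92, the adaptor Synpo2 at 5.34 and 2.86, and caldesmon, Cald1, at 64.3 and 43.9, all on the lower side of 0 but short of 2-fold. Tpm2, a muscle tropomyosin, was at 44.7 and 44.6. The light chain Myl6, at 1450 and 1193, was the most abundant of the list.

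Regulators of the mural programme were compared next. Of 14 SRF and Notch regulators that passed the minimum, none was changed at least 2-fold with the pseudocount of 1, and their median change was -0.14, which became 0.05 with a mean of 10 FPKM as the minimum. Srf was at 17.4 and 18.1, with a change of 0.05 that became -0.27 at equal totals. Myocd, which encodes myocardin, was at 0.108 and 0.0929, or 5.96 and 5.31 reads by the shortest transcript, too few to compare. Foxs1, a forkhead factor gene of mural cells, was at 13.2 and 6.40, which was 2.06-fold lower by the ratio, and its change lay between -1.23 and -0.68 over the settings. The Notch target Hey1, of this list, was at 8.95 and 5.26. Heyl, also a Notch target, was at 2.33 and 1.07, but it was counted with the other pericyte genes, as was Notch3. Klf4, a factor linked to loss of the contractile state and induced in macrophages as well, was at 29.0 and 51.0.

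Among PDGF ligands, Pdgfb, the endothelial signal for pericytes, was at 20.1 and 16.6, whereas its receptor gene Pdgfrb was 2.39-fold lower. Pdgfc, which binds PDGFRA, was at 4.21 and 9.55, with a change of 1.02. Pdgfa was at 13.4 and 8.69, and Pdgfd, a further ligand of PDGFRB, at 8.92 and 6.35.

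**Figure D4:**
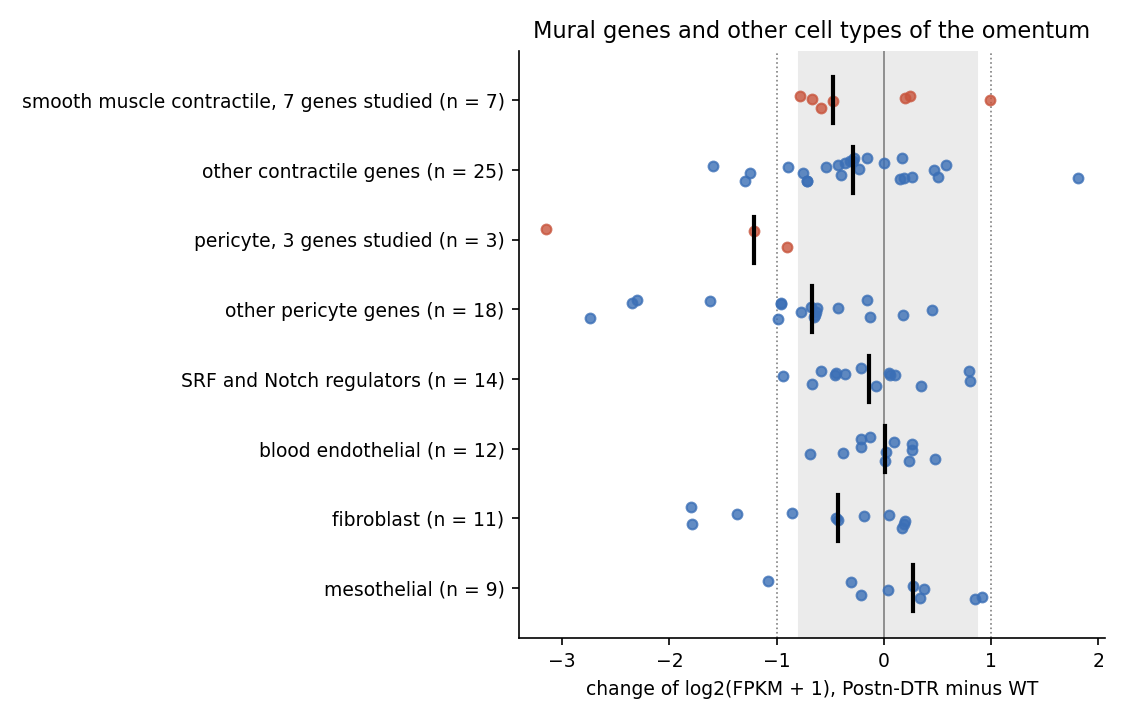
Difference in log2(FPKM + 1) from WT to Postn-DTR for each gene (points) of 8 gene lists, in red for the 10 mural genes and blue otherwise, with list medians as black bars, the 5th to 95th percentile of all genes compared (-0.79 to 0.87) in grey and 2-fold as dotted lines. The medians are -1.21 for the 3 pericyte genes studied, -0.67 for other pericyte genes, -0.48 for the 7 contractile genes and 0.01 for blood endothelial genes. The endothelial and mesothelial medians turn below 0 at equal totals.

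Other cells that use some of these genes were examined by their own markers. Of 11 fibroblast genes 3 were at least 2-fold lower, beside 3.12% of all genes compared, with a median change of -0.43. Dpt was at 236.9 and 67.3, while Dcn, at 1875 and 2152, had a change of 0.20 that became -0.15 at equal totals. Of 6 myofibroblast genes that passed the minimum 2 were at least 2-fold lower, beside the same 3.12%. They were Postn itself, at 58.3 and 16.2, and Ltbp2, at 12.4 and 5.63, whereas Fn1 was at 459.1 and 836.8. Postn carries the DT receptor insertion and its promoter selects the cells killed, so its low value cannot be read apart from the design. Of the 6 genes, 3 were below 0 and 3 above it. The 9 mesothelial genes had a median of 0.27, which became -0.06 at equal totals. Markers of skeletal muscle, which uses Des and other leiomodins, were low, with sums of 6.96 FPKM in WT against 6.81 in Postn-DTR over 13 genes, and Myh4 was listed at 0 in both. The 7 Schwann cell genes summed to 20.7 FPKM in WT against 21.7 in Postn-DTR. Only Mbp (16.7 and 18.7) and Erbb3 (1.01 and 2.13) among them passed the minimum, and Sox10 had 0.154 FPKM in WT and was listed at 0 in Postn-DTR. The part of fibroblasts, myofibroblasts and pancreas in the values of Pdgfrb, Des and the other mural genes was not tested.

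The values of the mural genes were recomputed under other pseudocounts, filters and scalings. Rgs5 lay between -3.58 and -2.24 and Pdgfrb between -1.53 and -1.05, so that both stayed past 2-fold throughout. The filters cannot alter a gene's own change and repeat its main value. The other settings only rescale or offset the same pair of libraries. Cspg4 lay between -1.17 and -0.55, Myh11 between -1.11 and -0.68, and Cnn1 between 0.53 and 1.27.

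**Figure D5:**
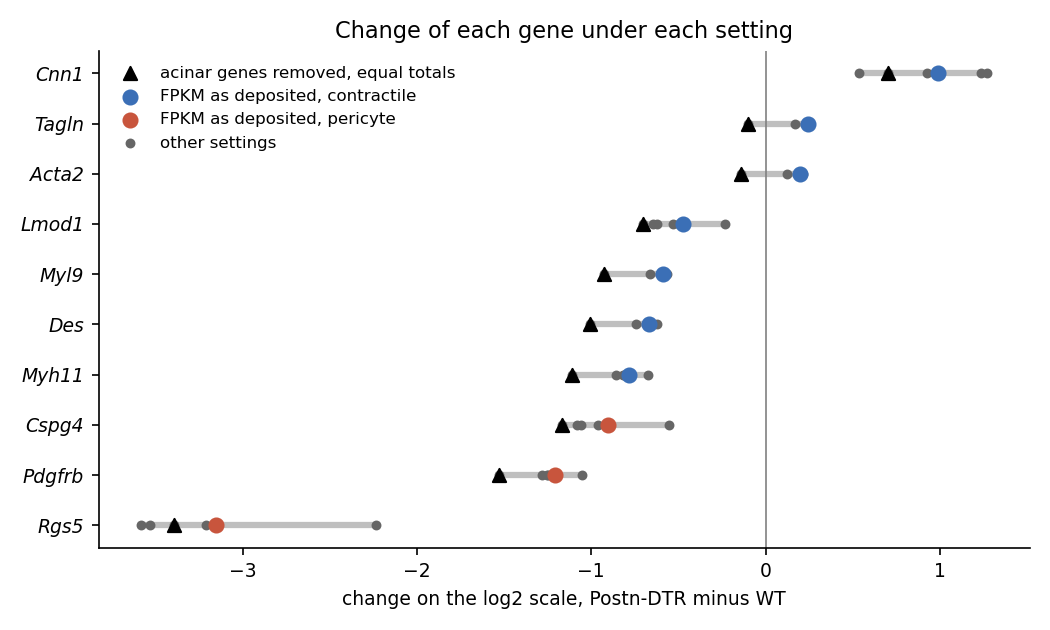
Change on the log2 scale, Postn-DTR minus WT, of each of the 10 mural genes as deposited (large points, blue for contractile and red for pericyte genes), under other settings (small points) and with acinar genes removed and equal totals (triangles). Acta2 and Tagln cross 0, at -0.14 and -0.10 under equal totals, and the other 8 genes stay on the same side of 0.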

How the data were processed

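RNA was taken from entire omenta, and per the labels a TruSeq stranded mRNA kit was used on miRNeasy extracts. The authors deposited FPKM, 1 value per gene symbol and library. The submitters' processing notes name TopHat2 2.1.1, Bowtie2 2.2.8, SAMtools 0.1.18 and Cuffdiff 2.2.1 with the build mm10, without saying which step each served, and the annotation used was not given in the sources used here. Groups came from the genotype labels.

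Changes of log2(FPKM + 1) were computed with pandas 2.3.3 and numpy 2.4.6 for genes whose mean reached 1 FPKM, and counting intervals with scipy 1.17.1. For depth, 723 genes of low FPKM were used, of which 174 shared 1 ratio between the libraries, 0.967 (Postn-DTR over WT). Steps of whole reads in genes with 1 transcript in GENCODE M21 (GRCm38, the same assembly as mm10) gave the number of fragments, with lengths reduced by 207 bases, and 77.8% of 414 low values in WT and 77.7% of 364 in Postn-DTR were then within 0.1 of a whole read. These shares come from the values that gave the depth, and the depth is approximate. The steps were tested on simulated data. Positions and transcript lengths are from GENCODE M21, which may differ from the authors' annotation.

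The genes and lists were chosen with earlier results of these data known. Named genes are the 10 mural genes and genes of the lists, those past 2-fold and those best known for their role. With 2 libraries, no likeness of pattern between genes could be measured. Values of some genes of the lists are not reported here.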

Additional observations from a re-analysis of the deposited data

How the results depend on the processing

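With 1 library per genotype there is no spread between replicates, and a median was counted as moved when it shifted by over 0.1 on the log2 scale. No paired analysis was possible because each genotype has a single library. As deposited, 2 of the 10 genes were at least 2-fold lower, 0 higher, and the median change was -0.63 for all, -0.48 for contractile and -1.21 for pericyte genes. With the acinar genes removed and equal totals, 5 were lower and the medians were -0.97, -0.70 and -1.53. The deposited values of all genes had a larger total in Postn-DTR (671882 FPKM) than in WT (542190). Acinar genes held 21.8 and 13182 FPKM of these totals, respectively. Removal of the acinar genes and equal totals together multiplied each Postn-DTR value by 0.787. The share of the shift due to acinar removal alone was not tested. The equal-totals setting moved the median of all genes to -0.28, so the mural genes moved with it. The number higher was 1 (Cnn1) with a pseudocount of 0.1, with none, and at equal endothelial sums. At 1.5-fold 6 were lower and 1 higher, and at 3-fold 1 was lower, as the thresholds imply. The contractile median was -0.59 with a pseudocount of 0.1, -0.23 with 5, -0.59 when the minimum was 10 FPKM and -0.59 with no pseudocount. The pericyte median was -1.05 with a pseudocount of 5, and it was -2.18 when the minimum mean was 10 FPKM, where Cspg4 drops out. Of other pericyte genes, 4 were lower as deposited, 8 with a pseudocount of 0.1, 8 at equal totals, 7 after 75th percentile scaling and 1 when the minimum was 10 FPKM. As deposited, 3.12% of all genes compared were at least 2-fold lower. That share is not given for the other pseudocounts, filters and scalings. The 2-fold counts under them, for mural and other pericyte genes alike, therefore have no background beside them. Reading without a pseudocount was added after the data were seen. Depth limits genes with few estimated reads, such as Rgs5 in Postn-DTR (31.7), Cnn1 in WT (54.5) and Myocd (5.96 and 5.31).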

Other observations

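Receptors for vasoactive signals, through which nerves, hormones and endothelium set the tone of mural cells, were compared as a further list, chosen after the values of the mural genes were seen. Of 23 genes 15 passed the expression minimum. Past 2-fold, 5 of them were lower and 1 higher in Postn-DTR, beside 3.12% lower and 3.88% higher over all genes compared. The median change was -0.73, and 13 of the 15 were below 0, beside 48.1% of all genes compared. The median became -0.23 when the minimum mean was raised to 10 FPKM.

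Agtr1a and Ednra, both among the 5 lower genes, were already counted as lower in the pericyte and contractile lists above. For these genes the receptor list therefore repeats earlier values and adds nothing new. Adra2a, an alpha-2 adrenergic receptor gene that adipocytes also use, was at 4.11 in WT against 0.0922 in Postn-DTR, the latter from about 7.505 estimated reads. Avpr1a, the vascular vasopressin receptor, was at 4.95 and 0.639, or 7.76-fold lower. Gucy1b3, a subunit of the guanylate cyclase that senses nitric oxide, was at 5.76 and 1.88, or 3.07-fold lower. The endothelin B receptor gene Ednrb, which endothelial cells use as well, was at 29.5 and 27.7. The exception was P2rx1, at 2.72 and 14.6, which encodes an ATP-gated channel of smooth muscle that is also found on platelets and myeloid cells.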
